A study of Mus musculus with 6 samples.

Results

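The 9 genes described here encode chains of laminins that lie beneath epithelial cells, some of them also in vessel walls, and parts of the hemidesmosome, which holds epithelial cells to laminin. They were taken by symbol through their Ensembl identifiers from count tables of 41388 genes and are Lama3, Lamb3, Lama5, Lamb2, Itga6, Itgb4, Col17a1, Dst and Cd151. RNA-seq was performed on 6 samples of primary mammary tumor cells from MMTV-PyMT mice of the strain FVB/N-TgN(MMTVPyVT)634Mul/J, in which the mouse mammary tumor virus promoter, active in mammary epithelium, drives the polyoma middle T oncogene. The mice were 12 weeks old by the study's account of its experiments, though its methods also name a slightly older age, and the tumors of both groups carried this transgene. One group comprised 3 samples of tumor initiating cells (TICs), sorted as CD24+CD90+CD45- cells, and the other, hereafter called comparison cells, 3 samples of non-CD24+CD90+ tumor cells, sorted as CD45- cells that lacked either or both markers by the study's methods and both markers by the series description. Each sample pooled 4 cell sorts from separate mice, so that differences between mice within a pool were not visible.

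Laminins are cross-shaped trimers of an alpha, a beta and a gamma chain and are the main adhesive proteins of basement membranes. Laminin-332 is built from the products of Lama3 and Lamb3 with a gamma chain and lies beneath epithelial cells, whereas laminin-511 and laminin-521 are built from the product of Lama5 with those of Lamb1 or Lamb2 and of Lamc1 and occur beneath epithelium and in vessel walls. Integrin alpha6 beta4, the product of Itga6 and Itgb4, binds laminin-332 and is coupled to keratin filaments through plectin and the Dst product BP230, with collagen XVII and the tetraspanin CD151 in the same plaque. In the mammary gland, hemidesmosomes are known from the basal cells that rest on the basement membrane.

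The members did not move as 1 group. Lamb3, Itga6 and Itgb4 were lower in every TIC sample than in every sample of comparison cells. Lama3 had counts in all 3 samples of comparison cells, though only 3 counts in replicate 1, and in 0 of 3 TIC samples. Lama5, Lamb2 and Dst were higher in every TIC sample, and the groups overlapped for Col17a1 and Cd151. Of the 8 members that passed the filter on low counts, 0 passed an adjusted p-value of 0.1 in edgeR's exactTest, a threshold that 1.55% of all 12192 tested genes passed, 1.36% with higher and 0.189% with lower levels in TICs. By the quasi-likelihood test of edgeR and by DESeq2 0 members were called as well, where 0.41% and 2.51% of all genes were. At an unadjusted p-value below 0.05, exactTest found 3 members, Lamb2, Itga6 and Itgb4, beside 7.85% of all genes. Groups that did not overlap in CPM (counts scaled to a common library size and TMM-normalized) were found for 6 of the 8 members and for 15.2% of all tested genes, 7.69% higher and 7.55% lower in TICs. The median log2 fold change over these 8 members, from which Lama3 is missing, was 0.52, and that of all tested genes −0.0061.

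**Figure D1:**
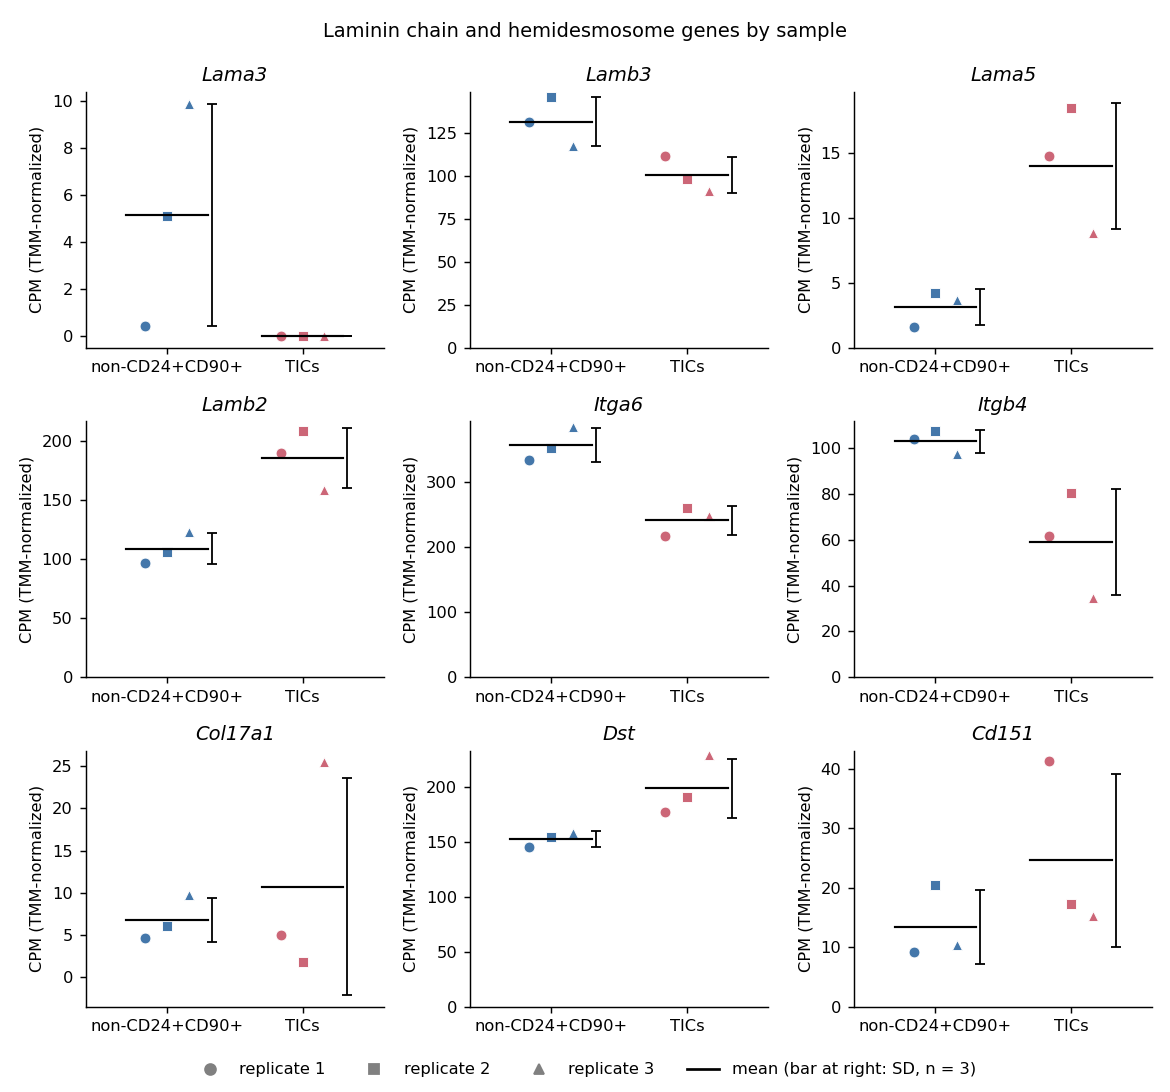
TMM-normalized CPM of the 9 genes (vertical axes, linear scale) in the 3 samples of comparison cells and the 3 TIC samples, with symbols for replicates, a line for the mean and a bar for the SD (n = 3). The TIC samples lay below the other group for Lamb3, Itga6 and Itgb4, above it for Lama5, Lamb2 and Dst, and at 0 for Lama3, while the groups overlapped for Col17a1 and Cd151.

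Total counts per sample ranged from 6781239 to 9100552. Nothing in the labels ties a sample to a batch or pairs samples between groups. Each sample was its own pool, and the p-values rest on the spread between pools. In the fit, the spread of each gene was drawn toward that of other genes. The p-values and intervals therefore do not measure a gene's own spread alone. The gene of the sorting marker CD90, Thy1, had 75.9, 56.7 and 21.6 CPM in comparison cells and 90.7, 207 and 70.3 CPM in TICs (log2 fold change 1.25, exactTest adjusted p = 0.35), and Cd24a a log2 fold change of −0.34 (exactTest adjusted p = 0.98). Reads of Ptprc, which encodes CD45, occurred only in replicate 1 of comparison cells, where there were 33. The luminal markers Krt18, Epcam and Cdh1 were abundant in both groups, at means of 2657, 1494 and 782 CPM in comparison cells and 1645, 1181 and 479 CPM in TICs.

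Lamb3, which encodes the beta3 chain found only in laminin-332, was slightly lower in TICs. Lamb3 (ENSMUSG00000026639, chr1:193207699-193343878 of GRCm38) had 132, 146 and 118 CPM in replicates 1 to 3 of comparison cells and 112, 98.6 and 91.2 CPM in those of TICs. The lowest sample of the first group lay only slightly above the highest TIC sample. The means were 132 ± 14.3 and 101 ± 10.5 CPM (SD, n = 3), a log2 fold change of −0.39 with a standard error of 0.31 and a 95% interval from −1.01 to 0.22 (exactTest adjusted p = 0.97).

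Lama3, the gene of the alpha3 chain that completes laminin-332, was scarce. Its counts (ENSMUSG00000024421) were 3, 45 and 69 in comparison cells and 0, 0 and 0 in TICs, or 0.438, 5.11 and 9.87 CPM against none. It exceeded 1 CPM in fewer than 3 samples and so did not enter the test. Taken over each group, 117 counts stood against 0, and with 3 counts over the TIC group as the floor the level was at least 43.5-fold lower in TICs, a bound that covers counting error only. Replicate 1 of comparison cells, with its 3 counts, was itself close to the TIC samples. Single samples also missed genes of this abundance, since 10.9% to 27.5% of the genes predicted to have 20 to 60 counts in a given sample were at 0 there. In a fit of all 17168 genes with at least 1 count, Lama3 had an unadjusted p of 0.0211 and an adjusted p of 0.66 in exactTest.

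Lamb2 encodes the beta2 chain, which takes the place of beta1 in laminin-521 and is typical of vessel walls, muscle and nerve. Lamb2 (ENSMUSG00000052911, chr9:108479736-108490530) had 97.3, 107 and 123 CPM in comparison cells and 190, 209 and 159 CPM in TICs. The groups were well apart, with every TIC sample above 150 CPM. Means of 109 ± 13.0 and 186 ± 25.3 CPM (SD, n = 3) gave a 1.71-fold higher level in TICs, a log2 fold change of 0.77 with a standard error of 0.30 and a 95% interval from 0.18 to 1.37. This was the member with the smallest p-value, 0.0119 unadjusted and 0.34 adjusted in exactTest, with adjusted p-values between 0.15 and 0.85 over the other settings and fits.

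Lama5, the alpha5 chain of laminin-511 and laminin-521, had the largest fold change of the tested members and low counts. Lama5 (ENSMUSG00000015647, chr2:180176373-180225859) had 11, 37 and 26 counts in comparison cells and 134, 158 and 67 counts in TICs, which are 1.61, 4.20 and 3.72 CPM and 14.7, 18.4 and 8.84 CPM. The lowest TIC sample was thus above the highest sample of the other group. The means of 3.17 ± 1.38 and 14.0 ± 4.83 CPM (SD, n = 3) differed 4.39-fold, a log2 fold change of 2.13 with a standard error of 1.19. Its 95% interval ran from −0.20 to 4.47 (exactTest adjusted p = 0.82), and the adjusted p over the other settings and fits lay between 0.109, with genes of at least 10 counts in every sample, and 1.

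Lamb1 and Lamc1, the beta1 and gamma1 chains that join alpha5 in laminin-511, also had higher means in TICs. Lamb1 had 223, 214 and 176 CPM in comparison cells and 333, 314 and 445 CPM in TICs, without overlap, a log2 fold change of 0.83 with a standard error of 0.29 (exactTest adjusted p = 0.19). It passed the threshold with DESeq2 (adjusted p = 0.0314) and in exactTest over genes with at least 10 counts in every sample (adjusted p = 0.0775). It did not pass in the quasi-likelihood test (adjusted p = 0.267) or in exactTest over all genes with at least 1 count (adjusted p = 0.384). Nor did it pass in exactTest with another scaling, RLE (adjusted p = 0.16) or library size alone (0.271). With any sample left out, Lamb1 did not pass either (exactTest adjusted p from 0.142 to 0.781). Lamc1 had 29.5, 31.2 and 53.6 CPM in the first group and 46.9, 98.6 and 141 CPM in TICs, where replicate 1 of TICs lay within the range of the other group. Its log2 fold change was 1.32 with a standard error of 0.47 (exactTest adjusted p = 0.23), and without replicate 1 of TICs 1.66 (exactTest adjusted p = 0.0257). Without any other single sample it was 0.95 to 1.65 (exactTest adjusted p from 0.243 to 0.735). Lamc1 passed in no other setting, the next lowest value being 0.115 in exactTest over genes with at least 10 counts in every sample.

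**Figure D2:**
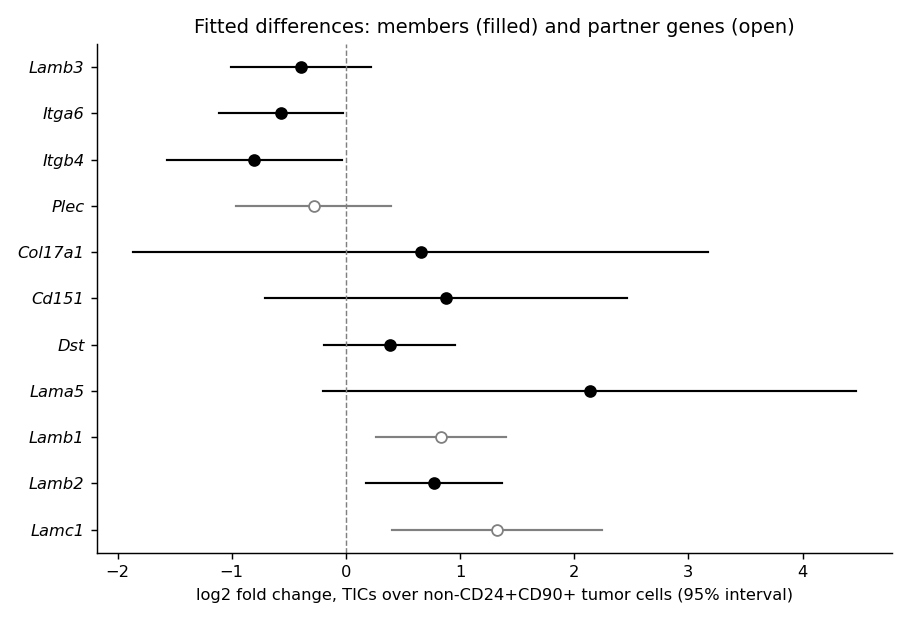
Fitted log2 fold changes, TICs over comparison cells, with 95% intervals (horizontal axis), for the 8 tested members (filled) and 3 partner genes (open). Intervals left of 0 belong to Itga6 and Itgb4, intervals right of 0 to Lamb1, Lamb2 and Lamc1, and those of Col17a1 and Lama5 are the widest.

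The balance between laminin chains was also read within each sample, as ratios of counts per kb of exon, which do not depend on the normalization between samples. These ratios were chosen after the values were seen and are given without a test. Lamb1 and Lamb2 were higher and Lamb3 lower in every TIC sample, so their ratios and the Lamb3 share had to separate the groups. That separation adds nothing to the absence of overlap of the single genes. Lamb2 over Lamb3 was 0.803, 0.791 and 1.14 in comparison cells and 1.85, 2.30 and 1.89 in TICs, so that Lamb2 outweighed Lamb3 in every TIC sample. Lamb3 made up 34.1%, 36.1% and 31.9% of the 3 beta chains in the first group and 20.7%, 18.4% and 16.3% in TICs. Lamb1 over Lamb3 was 1.13, 0.977 and 0.999 against 1.98, 2.12 and 3.25, all TIC samples above the others.

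**Figure D3:**
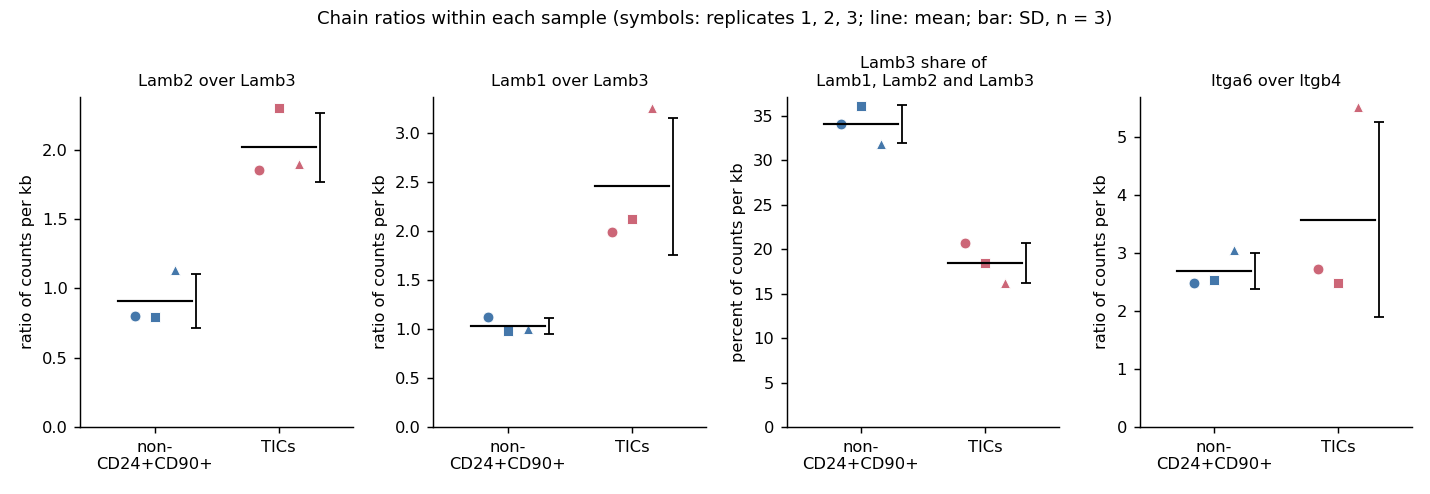
Ratios of counts per kb of exon between 2 genes of the same sample, and the percentage of Lamb3 among the 3 beta chains (vertical axes, from 0), for the 3 samples of each group with the mean as a line and the SD as a bar (n = 3). The groups lay apart for Lamb2 over Lamb3, Lamb1 over Lamb3 and the Lamb3 share, and overlapped for Itga6 over Itgb4. The separation of the former follows from the absence of overlap of the 3 beta chain genes.

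Since Lamb3 lay on the lower side of the comparison and Lamb2 and Lama5 on the upper, a start region of each of these 3 genes is shown as RefSeq gives it on GRCm38.p6, from 250 bases before to 50 bases after a RefSeq start, 5′ to 3′ on the strand of the gene. The Lamb3 window lies well inside the span given above for the gene, which comes from another annotation. Lamb3 is at chr1:193301744-193302043 on the plus strand, Lamb2 at chr9:108479612-108479911 on the plus strand and Lama5 at chr2:180225810-180226109 on the minus strand. Capitals mark matches on either strand to the GC box GGGCGG and to the E-box CACCTG.
Lamb3: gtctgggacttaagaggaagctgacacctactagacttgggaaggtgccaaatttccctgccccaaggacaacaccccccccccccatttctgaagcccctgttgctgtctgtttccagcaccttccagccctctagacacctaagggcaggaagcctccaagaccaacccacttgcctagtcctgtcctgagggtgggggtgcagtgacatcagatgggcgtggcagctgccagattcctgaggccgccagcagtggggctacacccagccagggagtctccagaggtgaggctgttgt
Lamb2: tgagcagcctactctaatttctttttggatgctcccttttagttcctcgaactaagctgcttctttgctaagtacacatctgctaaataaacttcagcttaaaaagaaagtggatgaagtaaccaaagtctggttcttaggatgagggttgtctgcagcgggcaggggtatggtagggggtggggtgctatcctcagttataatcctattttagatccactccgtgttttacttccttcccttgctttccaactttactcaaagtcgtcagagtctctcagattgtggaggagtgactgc
Lama5: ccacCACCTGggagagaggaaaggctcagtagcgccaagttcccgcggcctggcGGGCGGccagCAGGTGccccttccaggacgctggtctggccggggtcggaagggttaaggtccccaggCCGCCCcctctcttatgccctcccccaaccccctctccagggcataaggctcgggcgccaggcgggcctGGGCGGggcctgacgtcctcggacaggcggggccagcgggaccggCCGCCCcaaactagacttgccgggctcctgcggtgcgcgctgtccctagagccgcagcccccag

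The Lama5 window held 24 CpG dinucleotides, at least as many as 81.6% of 32851 RefSeq windows of this length, while that of Lamb2 held 4 (38.0%) and that of Lamb3 2 (23.3%). Lama5 had 4 matches to the GC box and 2 to the E-box, and the Lamb2 and Lamb3 windows shown had neither. A further Lamb3 window, which begins within the first, held 2 matches to the E-box. Of all windows 35.7% held the GC box and 20.2% the E-box. The AP-1 motif TGANTCA, present in 7.8% of all windows, matched in none of the 9 windows of the 6 members that had one, which are Lamb3, Lama5, Lamb2, Col17a1, Dst and Cd151. Windows on chromosome 18, where Lama3 lies, were left out of the search and of the 32851 windows. No matches of different motifs overlapped.

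Itga6, the alpha6 chain of the laminin receptors alpha6 beta4 and alpha6 beta1, had the highest CPM per kb of exon of the members in comparison cells. Itga6 (ENSMUSG00000027111, chr2:71745616-71858416) had 333, 352 and 384 CPM in comparison cells and 216, 259 and 247 CPM in TICs. All 3 TIC samples were well below the lowest sample of the other group. The means were 356 ± 25.9 and 241 ± 22.0 CPM (SD, n = 3), a log2 fold change of −0.56 with a standard error of 0.28 and a 95% interval from −1.11 to −0.02 (exactTest p = 0.0427 unadjusted and 0.60 adjusted).

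Itgb4 encodes the beta4 chain, which pairs only with alpha6 and whose long tail binds plectin. Itgb4 (ENSMUSG00000020758, chr11:115974709-116008412) had 104, 107 and 97.6 CPM in comparison cells and 61.8, 80.7 and 34.8 CPM in TICs. The first group was tight and the TIC samples were spread over a wide range below it, replicate 3 being the lowest. With means of 103 ± 5.05 and 59.1 ± 23.0 CPM (SD, n = 3), the log2 fold change was −0.80 with a standard error of 0.39 and a 95% interval from −1.57 to −0.03 (exactTest p = 0.0430 unadjusted and 0.60 adjusted). It was −0.51 without replicate 3 of TICs (exactTest p = 0.166 unadjusted) and −1.09 without replicate 2. Itga6 over Itgb4, per kb, was 2.48, 2.55 and 3.06 in the first group and 2.72, 2.49 and 5.52 in TICs, where only replicate 3 of TICs stood out. Itgb1, the partner of Itga6 and Itga3 in other laminin receptors, had a log2 fold change of 0.11 with a standard error of 0.35 (exactTest adjusted p = 1), which turned to −0.35 without replicate 1 of TICs. Itga3 had a log2 fold change of 0.20 with a standard error of 1.21 (exactTest adjusted p = 1), which turned to −0.97 without replicate 3 of TICs.

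Dst encodes several spectraplakin isoforms, of which BP230 is the epithelial one, and the counts joined all of them. Dst (ENSMUSG00000026131, chr1:33908225-34308661) had 145, 155 and 158 CPM in comparison cells and 177, 191 and 229 CPM in TICs. Every TIC sample was above the other group, with a small gap between them. The means of 153 ± 6.86 and 199 ± 26.8 CPM (SD, n = 3) gave a log2 fold change of 0.38 with a standard error of 0.29 and a 95% interval from −0.19 to 0.95 (exactTest adjusted p = 0.95). Plec, the gene of plectin, which shares the linker role with BP230, overlapped between groups and had a log2 fold change of −0.28 with a standard error of 0.35 (exactTest adjusted p = 1).

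Col17a1, the gene of the transmembrane collagen of hemidesmosomes, was low and uneven. Col17a1 (ENSMUSG00000025064, chr19:47646344-47692094) had 4.67, 6.01 and 9.73 CPM in comparison cells and 4.95, 1.75 and 25.5 CPM in TICs. Replicate 3 of TICs, with 193 counts, was far above the other samples and replicate 2, with 15 counts, below all of them. The means were 6.80 ± 2.62 and 10.7 ± 12.9 CPM (SD, n = 3). The log2 fold change was 0.65 with a standard error of 1.28 (exactTest adjusted p = 1), and without replicate 3 of TICs it was −1.001, so that no direction can be given.

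Cd151, a tetraspanin that associates with the laminin-binding integrins, overlapped between groups as well. Cd151 (ENSMUSG00000025510, chr7:141467392-141471473) had 9.19, 20.5 and 10.4 CPM in comparison cells and 41.3, 17.3 and 15.2 CPM in TICs. Only replicate 1 of TICs exceeded the highest sample of the other group. The means were 13.4 ± 6.22 and 24.6 ± 14.5 CPM (SD, n = 3). Its log2 fold change was 0.87 with a standard error of 0.81 and a 95% interval from −0.71 to 2.46 (exactTest adjusted p = 0.999), and 0.29 without replicate 1 of TICs. For each of the 6 members without overlap, a two-sided exact permutation test of mean log2 CPM gave p = 0.1, the smallest that 3 samples against 3 allow. Groups that do not overlap always give this value, so it adds nothing to the absence of overlap. For Cd151 and Col17a1 the same test gave 0.3 and 1.

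Levels of different genes were compared as CPM per kb of exon. In comparison cells, Itga6 was highest at 39.5 ± 2.87 CPM per kb (SD, n = 3), followed by Lamb3 at 19.96 ± 2.17 and Lamb2 at 17.9 ± 2.14, whose ranges overlapped, and by Itgb4 at 14.7 ± 0.720. Cd151 at 4.89 ± 2.27 CPM per kb overlapped Dst at 3.71 ± 0.167, and below them Col17a1 at 1.13 ± 0.436 overlapped Lama3 at 0.478 ± 0.439, which overlapped Lama5 at 0.279 ± 0.121. In TICs the order began with Lamb2 at 30.6 ± 4.15 CPM per kb, which overlapped Itga6 at 26.7 ± 2.44. Lamb3 at 15.2 ± 1.59, Cd151 at 8.97 ± 5.30, Itgb4 at 8.42 ± 3.28 and Dst at 4.83 ± 0.651 CPM per kb followed, each overlapping the next. Col17a1 at 1.78 ± 2.14 and Lama5 at 1.23 ± 0.424 CPM per kb overlapped as well, and Lama3 was last at 0. The value of Dst rests on an exon length of 41155 bases, in which the exons of all its isoforms were merged and shared bases counted once.

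Among the partner genes, the lists were described by the same fit. Of 6 further laminin chains 5 were tested and 0 passed the adjusted p-value of 0.1 in exactTest, with 2 at an unadjusted p below 0.05, Lamb1 and Lamc1, and a median log2 fold change of 1.05. Of 6 tested hemidesmosome and laminin receptor genes 0 were called, 0 had an unadjusted p below 0.05 in exactTest and all overlapped between groups, Dag1, the gene of the laminin receptor dystroglycan, having the lowest log2 fold change at −0.94 with a standard error of 1.11. Col7a1, the anchoring fibril collagen beneath hemidesmosomes, had 145 ± 0.684 CPM in comparison cells and 150 ± 31.1 CPM in TICs (SD, n = 3). Of 4 tested tetraspanins 0 were called and 0 had an unadjusted p below 0.05 in exactTest, with log2 fold changes from −0.48 for Cd82 to 0.10 for Cd9. Of 12 tested basement membrane components 2 rose, the collagen IV chains Col4a1 with a log2 fold change of 0.97 (exactTest adjusted p = 0.0922) and Col4a2 with 1.003 (exactTest adjusted p = 0.0651), beside a list median of 0.50. Both stayed called by DESeq2 (adjusted p = 0.00449 and 0.00448) and in exactTest with RLE scaling (adjusted p = 0.0805 and 0.0533). They also passed in exactTest over genes with at least 10 counts in every sample (adjusted p = 0.0302 and 0.0194). Neither passed in the quasi-likelihood test (adjusted p = 0.203 and 0.164), with library size alone (0.137 and 0.113), over all genes with at least 1 count (0.177 and 0.138), or when any sample but replicate 1 of TICs was left out (0.25 to 0.431 for Col4a1 and 0.176 to 0.415 for Col4a2).

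Enzymes that cleave laminin chains formed the last list, and 2 of 3 tested rose. Mmp14, a membrane-bound matrix metalloproteinase that can cleave laminin-332, had a mean of 1099 ± 25.4 CPM in comparison cells and 2606 ± 701 CPM in TICs (SD, n = 3), a log2 fold change of 1.25 (exactTest adjusted p = 0.00642). Mmp2, a secreted enzyme of the same kind, had 52.9 ± 16.7 and 133 ± 14.2 CPM (SD, n = 3), a log2 fold change of 1.33 (exactTest adjusted p = 0.0407). Bmp1, which trims laminin-332 after secretion, had a log2 fold change of 0.62 (exactTest adjusted p = 0.90). Mmp14 stayed called in the quasi-likelihood test and lost the call without replicate 2 or 3 of comparison cells (exactTest adjusted p = 0.146 and 0.101). Mmp2 lost it in the quasi-likelihood test (adjusted p = 0.171) and without replicate 1 or 3 of comparison cells or replicate 2 of TICs (exactTest adjusted p = 0.33, 0.175 and 0.227).

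Cell type markers differed between the groups beside these genes, and in bulk RNA fewer cells of a type and less RNA per cell cannot be told apart. Of 10 luminal markers 0 were called by exactTest, 2 had an unadjusted p below 0.05 and 4, Epcam, Cdh1, Krt8 and Krt18, were lower without overlap, and the sum of the list was 5973 to 6390 CPM in comparison cells and 3902 to 4706 CPM in TICs, on the same side as Lamb3, Itga6 and Itgb4. The 6 markers of basal cells, the cells known for hemidesmosomes, had sums of 581 to 1170 and 479 to 704 CPM that overlapped, with 0 called by exactTest, 1 at an unadjusted p below 0.05, and Krt14, Cdh3 and Krt5 as the most abundant. On the side of Lama5, Lamb2 and Dst, 5 of 8 tested fibroblast markers rose, Col1a1, Col1a2, Col3a1, Dcn and Dpt, and the sum went from 2791 to 3180 CPM up to 7466 to 10826 CPM. Of 9 pericyte or smooth muscle markers 1, Rgs5, was called by exactTest, 4 had an unadjusted p below 0.05 and 4 were higher without overlap. Of these 9, 8 had a positive log2 fold change (median 0.96), and the sums were 540 to 665 and 950 to 1452 CPM. Of 11 endothelial markers 1, Robo4, was called by exactTest, 8 had an unadjusted p below 0.05 and 2 were higher without overlap. All 11 had a positive log2 fold change (median 1.25), and the sums were 254 to 338 and 349 to 1646 CPM. Leukocyte markers summed to 12.4 to 23.8 and 4.09 to 21.2 CPM, with Adgre1 and Cd3e at 0 in all samples, and both tested genes overlapped. The adipocyte list summed to 56.5 to 137 and 192 to 1225 CPM, nearly all of it Fabp4, the 1 gene tested. Fabp4 rose with a log2 fold change of 2.75 (exactTest adjusted p = 0.000466), while Adipoq, Plin1 and Lep were at 0 in all samples. In replicates 1 to 3 of TICs, Fabp4 had 192, 494 and 1225 CPM and the endothelial sums were 349, 676 and 1646 CPM. Which cells the Fabp4 reads came from was not tested. The part of these cell types in the differences of the laminin and hemidesmosome genes was not tested.

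**Figure D4:**
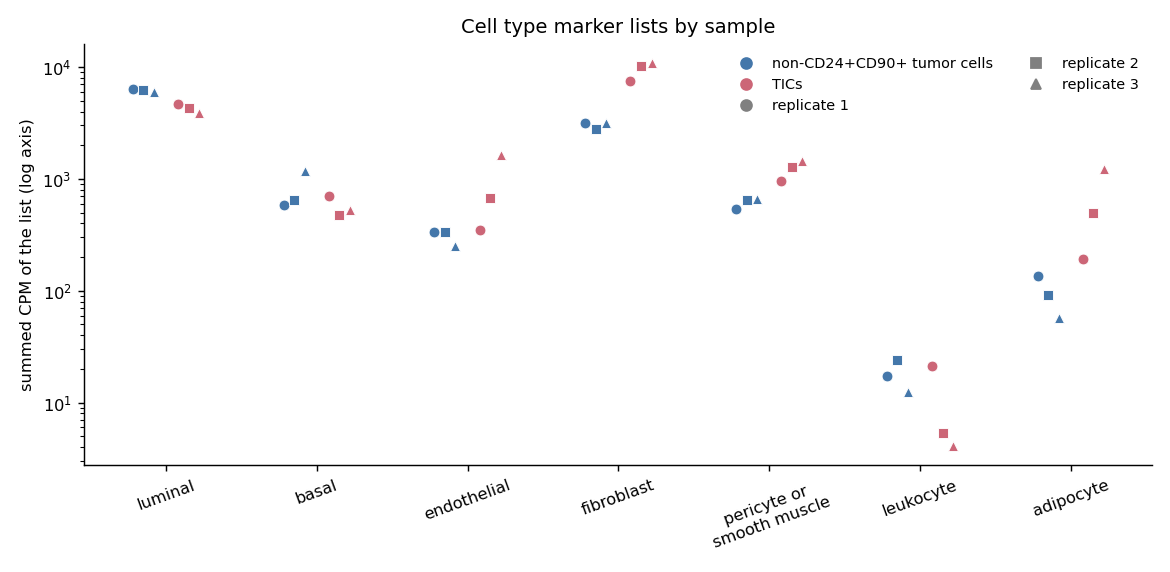
Summed TMM-normalized CPM of each cell type marker list (vertical log axis) in the 6 samples, with colours for the groups and symbols for replicates. The fibroblast sum was 2791 to 3180 CPM in comparison cells and 7466 to 10826 CPM in TICs, the luminal sum was lower in every TIC sample, and the basal sums overlapped.

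For each tested member, the genes whose log2 CPM followed it most closely over the 6 samples were sought among 11880 genes with at least 100 counts. As the best of so many over samples that fall into 2 groups, these values describe likeness and carry no test. Lamb3 was followed by Plet1 (Pearson r = 0.994), Atmin and Vamp8, Itga6 by Galnt10 (r = 0.998), Adk and Mrps18c, and Itgb4 by Tmem104 (r = 0.997), Eif3l and Rab1b. Lama5 was followed by the collagen VI gene Col6a3 (r = 0.994), the hyaluronan synthase gene Has1 and Ccn3, and Lamb2 by Spdl1 (r = 0.992), Serping1 and Selenoi. For Dst these were Ifnar1 (r = 0.996), Gja4 and Tnfaip2, for Col17a1 Tbc1d2b (r = 0.988), Parp16 and Grb2, and for Cd151 Smyd5 (r = 0.974), Nub1 and Plin2. No gene was shared between these lists.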

How the data were processed

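RNA-seq of 3 TIC samples and 3 samples of comparison cells was analysed, with 120 ng of RNA per library. Per the labels and the study's methods, the authors used Trimmomatic 0.32 for trimming, STAR 2.4.0 for alignment to GRCm38, SAMtools 1.1 to keep uniquely mapped reads and HTSeq to count them per Ensembl gene. The HTSeq version, strand setting and annotation release are not given in the sources used here. The deposited values are raw counts. Without a known strand setting, reads of a gene and its antisense partner cannot be told apart, and exons on the other strand covered 7.66% of Itgb4, 7.04% of Cd151, 3.63% of Dst and 1.83% of Lama3.

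A gene was kept if it exceeded 1 CPM in 3 or more samples (12192 of 41388). Counts were TMM-normalized and compared with exactTest in edgeR 4.0.16 under R 4.3.3, with tagwise dispersions and Benjamini-Hochberg adjustment over all kept genes, called below 0.1. The tagwise dispersions, in which the value of each gene is drawn toward that of other genes, also gave standard errors and 95% intervals. Coordinates and exon lengths came from GENCODE on GRCm38. Alternatives were the quasi-likelihood test, DESeq2 1.42.0, another scaling (RLE, or library size alone), other filters, an adjusted p below 0.05 and leaving out each sample. Those for partner genes, and the chain ratios, were chosen after seeing the data. Scripts were tested on simulated counts.

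The members, gene lists and tests were chosen with earlier results of these data known. Named were the 9 members, Lamb1, Lamc1, Plec, Itga3 and Itgb1, other partner genes that passed the test, the highest and lowest log2 fold change per partner list, the 3 most abundant markers per list, markers at 0 in all samples and the 3 genes most like each member. Other genes were named after their values were seen (Col7a1, Col18a1, Col4a6, Lama2, Lama4, Lamc3, and markers named because they passed the test or did not overlap). Some further genes are not reported here.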

Additional observations from a re-analysis of the deposited data

How the results depend on the processing

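The 0 called members, the directions of 7 of the 8 tested members and the 6 members without overlap were the same under every alternative in which they were computed. The alternative of an adjusted p below 0.05 used the main fit, so its 0 called members and its directions were fixed in advance. With each sample left out in turn, Col17a1 ranged from −1.001 to 1.16, and of the partner genes Itga3 from −0.97 to 0.78 and Itgb1 from −0.35 to 0.32, all on the log2 scale. These genes reversed without replicate 3 of TICs (Col17a1 and Itga3) or replicate 1 of TICs (Itgb1). Over all genes, exactTest called 189, the quasi-likelihood test 50, DESeq2 306, a filter of at least 1 count 112 and an adjusted p below 0.05 116 genes. Leaving out samples singly gave 68 to 314 genes, lowest without replicate 3 of comparison cells and highest without replicate 1 of TICs, and in each of these fits 0 members were called. Of the partner genes 4 were called, against 1 in the quasi-likelihood test and 2 each with library size alone, a filter of at least 1 count and an adjusted p below 0.05. The number was 0 to 6 with a sample left out, 0 without replicate 3 of comparison cells and 6 without replicate 1 of TICs. The cause of these changes was not tested. Across the scalings the median log2 fold change of all genes stayed within 0.1 of 0. No paired analysis was possible because the replicate numbers only follow sample order and the labels pair no samples. The study does not state whether both groups were sorted from the same mice, and the tests treat the 6 samples as independent. The biological coefficient of variation common to all genes was 0.823, but the intervals rest on tagwise dispersions. These were 0.999, 1.17 and 0.465 for Lama5, Col17a1 and Cd151, and 0.0549 to 0.109 for Lamb3, Lamb2, Itga6, Itgb4 and Dst. With 3 pools per group, the wide intervals of Lama5, Col17a1 and Cd151 limit what can be said of them.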

Other observations

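The other laminin alpha chains had larger tagwise dispersions, 0.225 to 2.50, than Lamb1 and Lamc1, at 0.0607 and 0.157. Lama4, a chain of vessel and mesenchymal laminins, had 55.7, 28.5 and 12.7 CPM in comparison cells and 37.5, 71.3 and 92.6 CPM in TICs, a log2 fold change of 1.05 with a standard error of 0.56 (exactTest adjusted p = 0.70). Lama2, the alpha chain of muscle and nerve laminins, had 21.5, 5.56 and 14.6 CPM and 12.9, 61.1 and 26.3 CPM, a log2 fold change of 1.27 (exactTest adjusted p = 0.86). Lama1 had 8.03, 0.794 and 9.01 CPM in the first group and 4.07, 0 and 0.132 CPM in TICs, a log2 fold change of −2.07 with a standard error of 1.88 (exactTest adjusted p = 1). All 3 overlapped between groups, and Lamc3 had counts in a single sample.

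The chains of collagen IV, the network collagen of basement membranes, lay on both sides. Col4a1 had 303, 366 and 321 CPM in comparison cells and 471, 642 and 830 CPM in TICs, and Col4a2 169, 216 and 230 CPM and 348, 397 and 489 CPM. Col4a6, chosen after its values were seen, had 24.8, 29.3 and 24.3 CPM in the first group and 12.9, 16.1 and 7.78 CPM in TICs, a log2 fold change of −1.09 with a standard error of 0.76 (exactTest adjusted p = 0.92). Col4a4 had the lowest log2 fold change of the list, −1.98 with a standard error of 1.42 (exactTest adjusted p = 0.97), with overlap. Ntn4, a netrin that binds laminin gamma chains, had the highest, 1.80 with a standard error of 1.08 (exactTest adjusted p = 0.86), with 2.63, 0.227 and 24.0 CPM against 24.1, 31.7 and 37.6 CPM. Col18a1, also chosen after its values were seen, had 30.6, 45.3 and 61.1 CPM and 107, 88.0 and 106 CPM, a log2 fold change of 1.14 with a standard error of 0.39 (exactTest adjusted p = 0.18). These were the 4 genes of the list, Col4a1, Col4a2, Ntn4 and Col18a1, that were higher without overlap, and Col4a6 the 1 that was lower.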
